A study of Mus musculus with 3 samples.

Results

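Cluster 3 is a set of 239 cells among the 9562 single-cell transcriptomes deposited for this study, and its members were taken from the cluster numbers that the authors assigned. It held 2.50% of all cells (95% exact interval 2.20 to 2.83%). The study asked whether embryonic stromal cells can induce a blood-forming programme in adult endothelium. Endothelial cells positive for GFP, CD31 and VE-Cad, and negative for CD41, CD45, PDGFRA and PDGFRB, were sorted from hearts of adult female mice that carry a green fluorescent protein transgene. They were co-aggregated with E11.5 *Mesp1*der PSCs, which are PDGFRA+ stromal cells of the embryonic aorta–gonad–mesonephros region, marked by DsRed after *Mesp1*-cre had acted on the Z/Red reporter in mesoderm. Fresh endothelial cells were pooled with GFP+CD31+VE-Cad+PDGFRA- cells re-sorted after 24, 48, 72 and 96 h of culture with 20% serum and cytokines at 100 ng/ml. All 3 pools (A, B and C) received this one treatment, so that there is no untreated group of its own. Transcripts were counted by unique molecular identifiers (UMIs) from their 3′ ends with 10x Genomics v3 chemistry. The barcodes name 3 libraries that could not be assigned to the pools, and no cell carries its time point. The reporter transcripts were not analysed here.

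As background, primordial germ cells are the embryonic precursors of eggs and sperm. They arise from the epiblast under the control of PRDM1, PRDM14 and TFAP2C, migrate towards the genital ridges, keep much of the pluripotency network (*Pou5f1*, *Nanog*, *Sox2*) and lose most of their DNA methylation, imprints included. In females the silent X chromosome is also reactivated. On arrival in the gonad they switch on *Ddx4* and *Dazl*, after which female cells enter meiosis with *Stra8* and male cells turn on *Nanos2* and *Dnmt3l*. The aorta–gonad–mesonephros region from which the stromal cells were dissected contains the genital ridge.

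Levels are given as UMIs of a gene per 10,000 UMIs of a cluster, and a cell was called positive above 0.5 counts per 10,000 of its own UMIs. Intervals are at the 95% level and cover counting error only. The matrix was treated as 1 sample, so that no test was possible, and because the clusters were themselves made from these counts, every comparison of cluster 3 with other cells is a description. A gene is called higher or lower here where the levels differed at least 2-fold and in the same direction in each of the 3 libraries. Genes were compared where the mean over the 7 clusters reached 0.1 UMIs per 10,000. This mean includes cluster 3, so that a gene abundant only there passes through it. Counts of higher genes in a list are partly set by this filter and describe the list without testing it.

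Cluster 3 was not spread evenly over the libraries. It held 69 of 3507 cells of library 1 (1.97%, 1.53 to 2.48%), 138 of 3958 cells of library 2 (3.49%, 2.94 to 4.11%) and 32 of 2097 cells of library 3 (1.53%, 1.05 to 2.15%). Library 2 thus gave most of these cells. Its cells were also the shallowest, with a median of 11,625 UMIs against 40,205 and 54,048.5 in libraries 1 and 3. Over all cells of cluster 3 the median was 23,684 UMIs (lowest 5102, highest 185,197) and 4847 genes, against 21,178 UMIs in the other clusters. Ribosomal protein transcripts made up a median of 26.9% of UMIs in cluster 3 and 13.6 to 22.8% in the other clusters, and mitochondrial transcripts 3.63% against 1.84 to 3.87%. Of the 26 cells whose barcode sequence recurs in another library, none was in cluster 3.

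The germ or pluripotent-like label goes with 5 markers, *Dppa5a*, *Utf1*, *Rhox6*, *Dppa3* and *Pou5f1*. They are among the genes that set the cluster apart, so their counts describe the label and do not test it. At least 3 of them were detected in 235 of the 239 cells (98.3%, 95.8 to 99.5%), and all 5 in 192 cells. After each cell had been thinned to 5000 UMIs the share with at least 3 was 95% (91.4 to 97.4%). In the other clusters it was 0.536% (50 of 9323 cells, 0.398 to 0.706%) as deposited and 0.271% after thinning, which left out 90 of those cells as too shallow and none of cluster 3. The 4 cells of cluster 3 with fewer than 3 markers all came from library 2, had a median of 6993 UMIs and carried 34.8 UMIs per 10,000 of 19 endothelial genes, against 9.26 in the other 235 cells.

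Among genes with at least 1 UMI per 10,000 in cluster 3, many of those with the highest ratio to all other clusters were germ cell and pluripotency genes. *Dppa5a*, which encodes an RNA-binding protein of pluripotent and early germ cells, stood at 26.6, 23.3 and 23.4 UMIs per 10,000 in libraries 1, 2 and 3 of cluster 3 and at 0.0177, 0.0679 and 0.0326 in the other cells. Its log2 ratio was 9.37 (9.27 to 9.46). *Dppa3*, whose product protects the maternal genome from demethylation in the zygote, was at 10.9, 8.31 and 9.54 (log2 ratio 9.05). *Utf1*, a chromatin-associated factor of pluripotent cells, was at 5.68, 4.61 and 5.27 (9.25), and the POU-domain factor *Pou5f1* at 4.37, 4.65 and 5.08 (7.88). Levels in the 3 libraries of cluster 3 lay close together. These 4 genes are among the markers of the label, and the ranking took only genes higher in each library.

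The remaining genes of the leading 20 included the homeobox genes *Rhox9*, *Rhox6* and *Rhox5*, the RNA-binding proteins *L1td1*, *Dnd1* and *Rbmxl2*, the transcription factors *Tfap2c* and *Sox2*, *Dppa4*, the threonine dehydrogenase *Tdh*, the imprinted gene *Phlda2*, the phosphatase *Alpl*, the adhesion molecule *Epcam*, the mitochondrial protein gene *Chchd10* and *BC048679*. Tissue-nonspecific alkaline phosphatase, the product of *Alpl*, is the enzyme by which primordial germ cells have long been stained. *Alpl* was at 1.69 UMIs per 10,000 in cluster 3 and 0.0202 elsewhere, *Epcam* at 2.46 against 0.0510 and *Chchd10*, the last of the 20, at 3.85 against 0.143. Germ cell transcripts in the other cells were few, and cluster 6 had the highest level of *Dppa5a* among them, 0.292 UMIs per 10,000. Thinned to 5000 UMIs, 95.4% of the cells of cluster 3 and 1.28% of the other cells were positive for *Dppa5a*. The second share takes in cells outside cluster 3 that carry several of the markers, and the part of free RNA in it was not tested.

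Promoter sequence was read for the leading genes from RefSeq on GRCm38.p6, as the 250 bases before the annotated start. A window was found for 11 of the 20 genes, and 4 are shown because they belong to the core pluripotency factors or hold the octamer, the element that POU factors such as POU5F1 bind. *Utf1* lies on the plus strand (window chr7:139943606-139943855), as do *Pou5f1* (chr17:35505782-35506031, the first of 2 windows listed), *Sox2* (chr3:34649745-34649994) and *Chchd10* (chr10:75932880-75933129). Capitals mark matches, on either strand, to the octamer ATGCAAAT or the GC box GGGCGG. The E-box CACGTG was also searched for and is not in these 4 windows.
Utf1: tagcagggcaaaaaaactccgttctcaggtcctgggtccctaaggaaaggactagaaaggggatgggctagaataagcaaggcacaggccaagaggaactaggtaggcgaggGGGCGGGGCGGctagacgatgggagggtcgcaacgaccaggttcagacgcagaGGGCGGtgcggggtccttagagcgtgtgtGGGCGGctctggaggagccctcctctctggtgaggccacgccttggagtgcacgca
Pou5f1: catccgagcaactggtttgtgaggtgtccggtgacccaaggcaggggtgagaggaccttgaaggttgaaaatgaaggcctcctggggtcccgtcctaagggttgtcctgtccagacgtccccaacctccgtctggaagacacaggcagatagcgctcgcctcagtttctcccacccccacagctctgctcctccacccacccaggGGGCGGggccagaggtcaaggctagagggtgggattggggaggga
Sox2: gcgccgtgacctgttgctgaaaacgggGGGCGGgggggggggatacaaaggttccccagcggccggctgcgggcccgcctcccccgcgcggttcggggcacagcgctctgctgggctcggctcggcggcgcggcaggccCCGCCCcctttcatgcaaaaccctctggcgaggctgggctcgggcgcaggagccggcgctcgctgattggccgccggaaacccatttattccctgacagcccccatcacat
Chchd10: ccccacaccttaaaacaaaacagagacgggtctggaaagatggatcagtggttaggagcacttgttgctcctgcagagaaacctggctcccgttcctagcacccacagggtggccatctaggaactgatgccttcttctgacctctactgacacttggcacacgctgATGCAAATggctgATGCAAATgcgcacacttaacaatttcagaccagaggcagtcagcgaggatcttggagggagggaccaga

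Only the *Chchd10* window, among the 11, held the octamer, with 2 matches that begin 83 and 70 bases before the start. The octamer occurred in 1.61% of the 27,025 windows of all genes. The GC box was in 7 of the 11 windows and in 32.9% of all windows, with 4 matches before *Utf1*, of which the first pair overlap. The E-box was in 1 of the 11, that of *Rbmxl2*, and in 6.05% of all windows. These are matches of letters in short windows only.

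**Figure D1:**
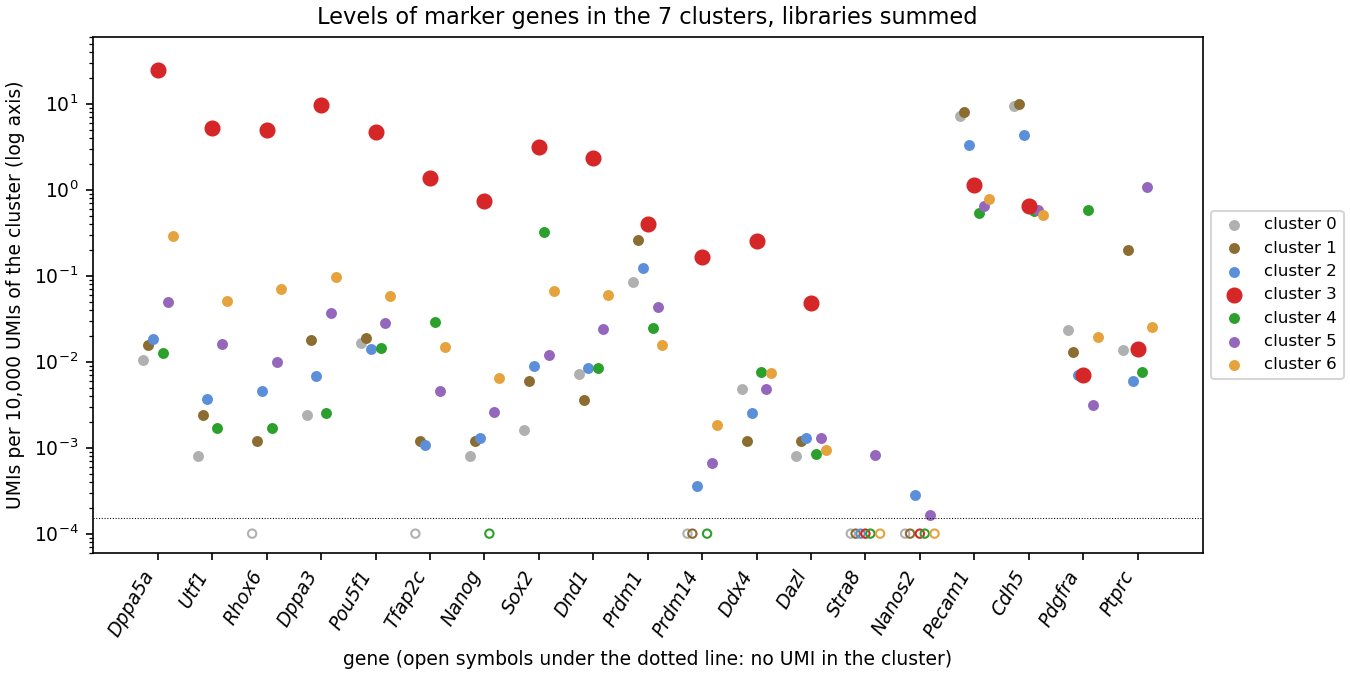
Level of 19 marker genes (UMIs per 10,000 UMIs of the cluster, log axis) in each of the 7 clusters, libraries summed; open symbols under the dotted line mark clusters with no UMI. Germ cell and pluripotency genes are highest in cluster 3 (large red points), *Stra8* and *Nanos2* have no UMI there, and *Pecam1* and *Cdh5* lie below clusters 0 to 2.

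Genes of germ cell specification and of the germ cell surface stood far higher in cluster 3. The 13 genes of this list summed to 51.2, 41.8 and 45.5 UMIs per 10,000 in the 3 libraries, 46.3 in all, against 3.14 in the other clusters. Of its 10 genes abundant enough to be compared, 9 were higher, *Cxcr4* was neither, and none was lower, while over all 8771 genes compared 6.29% were higher and 26.6% lower. Of the 9, *Tfap2c*, *Dppa3*, *Dnd1*, *Alpl* and *Prdm1* reached the level for comparison only through cluster 3. The count is therefore partly set by the filter and is not a result about the list. *Tfap2c* was at 1.49, 1.15 and 1.49 (log2 ratio 8.48). *Prdm1*, the repressor that sets germ cell fate, was at 0.385, 0.407 and 0.400 against 0.0956 elsewhere (2.05) and was also found in cluster 1, at 0.258. Of the 3 genes below the level for comparison, *Prdm14* was at 0.167 UMIs per 10,000 against 0.000449, *Nanos3*, a translational repressor that keeps migrating germ cells alive, at 0.244 against 0.00677, and E-cadherin (*Cdh1*) at 0.192 against 0.00371.

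*Ifitm3* and *Ifitm1*, interferon-induced membrane protein genes known as early germ cell markers, were abundant in all 3 libraries. *Ifitm3* (also called fragilis) was at 15.3, 13.3 and 13.5 UMIs per 10,000 in cluster 3 and at 2.01 elsewhere (log2 ratio 2.81), but cluster 1 exceeded cluster 3 with 22.0. *Ifitm1* was at 12.9 against 0.535 (4.60). *Dnd1*, an RNA-binding protein without which germ cells die, was at 2.74, 2.03 and 2.11 against 0.0144 (7.34). The share of cells differed in the same way. At 5000 UMIs per cell 97.1% of its cells were positive for *Ifitm3*, 94.6% for *Ifitm1*, 56.5% for *Dnd1* and 24.3% for *Prdm1*, where the other clusters had 42.2%, 5.90%, 0.477% and 4.93%.

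The pluripotency list had 23 genes, of which 15 were compared, 12 higher and 2 lower. Over all genes compared 6.29% were higher and 26.6% lower. The sum of the list was 54.4 UMIs per 10,000 in cluster 3 and 3.93 in the other clusters. Of the 12 higher genes *Nanog*, *Utf1* and *Dppa4*, among others, reached the level for comparison only through cluster 3, so that the filter partly set this count. *Sox2* was at 3.03, 3.31 and 2.96 (log2 ratio 6.85), *Nanog* at 0.810, 0.751 and 0.640 against 0.00175 (8.73) and *Sall4* at 1.86, 1.95 and 1.86 against 0.0762 (4.64). The zinc-finger factors of the Klf family differed among themselves. *Klf4* was lower in cluster 3, at 0.128 against 0.389 (log2 ratio -1.61, -1.92 to -1.31), *Klf2* was at 3.36 against 3.12 and *Klf5* was higher, at 0.570 against 0.0159 (5.17). For *Klf4* cluster 1 stood at 2.43, and only cluster 6 lay below cluster 3, at 0.107. *Tbx3*, a T-box factor of naive pluripotent cells, was also lower, at 0.0238 against 0.112. Clusters 5 and 6 had less *Tbx3*, 0.0139 and 0.0214, and the remaining clusters had more. Among the 8 genes below the level for comparison, *Zfp42* (0.468 against 0.000938), *Dppa2* (0.454 against 0.000775) and *Esrrb* (0.276 against 0.00208) were detected in all 3 libraries of cluster 3, while *Fgf4*, a growth factor secreted by the inner cell mass, had 1 UMI.

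Within cluster 3 these genes were not seen in every cell. Thinned to 5000 UMIs, 80.3% of cells were positive for *Pou5f1*, 69.5% for *Sox2* and 31% for *Nanog*, against 0.899%, 0.931% and 0.0975% of the other cells. At full depth 150 cells had UMIs of *Nanog* and *Sox2*, 8 of *Nanog* alone, 59 of *Sox2* alone and 22 of neither, so that *Sox2* was found in 94.9% of cells with *Nanog* and 72.8% of cells without. The cells with *Nanog* had a median of 36,122 UMIs and those without 8813, and the part of depth in this difference was not tested.

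Genes of the epiblast and primitive streak, 13 in all, summed to 1.09 UMIs per 10,000 in cluster 3 and 0.511 elsewhere. No UMI of *T* or *Foxd3* was found among the 7,135,158 UMIs of cluster 3, which allows a level of up to 0.00420 UMIs per 10,000 for each. *Eomes* had 1 UMI, *Zic2* 6 and *Otx2* 8, and *Otx2* had none in the other clusters. Of the list only the de novo methyltransferase *Dnmt3b* was compared, and it was lower, at 0.0407, 0.125 and 0.128 against 0.380 (log2 ratio -2.02). The TGF-β family ligand *Nodal* (0.203 against 0.0180) and its inhibitors *Lefty2* (0.224 against 0.000408) and *Lefty1* (0.123 against 0.00999) had higher levels in each library of cluster 3. *Fgf5*, *Pou3f1* and *Sox3* were at 0.0505, 0.0322 and 0.0294.

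Genes that mark germ cells after entry into the gonad were present at low levels. The 23 genes summed to 3.43, 3.33 and 2.87 UMIs per 10,000 in the 3 libraries of cluster 3 and to 0.0628 in the other clusters. *Tex19.1*, a repressor of retrotransposons, was at 0.995, 0.829 and 0.491 against 0.00167 (log2 ratio 8.91), and the RNA-binding protein *Elavl2* at 0.814, 0.864 and 0.875 against 0.0327 (4.70). These were the 2 genes of the list that reached the level for comparison, and both reached it only through cluster 3. That both were called higher follows from this filter and is no result. The RNA helicase *Ddx4*, also known as mouse vasa, was at 0.263, 0.258 and 0.235 against 0.00363, and *Tdrd12* and *Piwil2* of the piRNA pathway at 0.270 against 0.00212 and 0.105 against 0.00245. *Dazl* was at 0.0477, *Mael* at 0.0308 and *Sycp3*, a component of the meiotic chromosome axis, at 0.0547. *Gtsf1*, *Taf7l* and *Tdrd1* had 4, 2 and 1 UMIs. *Ddx4* was found in 10.5% of cells at 5000 UMIs (other clusters 0.184%) and *Dazl* in 2.93% (0.0325%).

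Genes of entry into meiosis and of male germ cells included several with no UMI in cluster 3. *Stra8*, the factor that starts meiosis in response to retinoic acid, had none, nor had *Nanos2* and *Dnmt3l* of the male pathway. *Meioc*, the meiotic partner of *Ythdc2*, had 1 UMI and *Gm4969*, the gene of the STRA8 partner MEIOSIN, 3, all in library 2. Of the 13 genes of meiotic entry 2 were compared and neither was called: *Ythdc2* was at 0.158 against 0.172 and *Msx1* at 0.0953 against 0.104. *Smc1b*, a meiotic cohesin subunit, was nevertheless at 0.244, 0.156 and 0.261 UMIs per 10,000 against 0.00155, and *Msx2* at 0.470, 0.258 and 0.475 against 0.0130. None of the 6 male germ cell genes reached the level for comparison. Of these *Tdrd5* was at 0.174, 0.149 and 0.224 against 0.00595, while *Piwil4*, *Piwil1* and *Tdrd9* had 5, 3 and 2 UMIs. At this depth *Stra8*, *Nanos2* and *Dnmt3l* were not detectable.

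**Figure D2:**
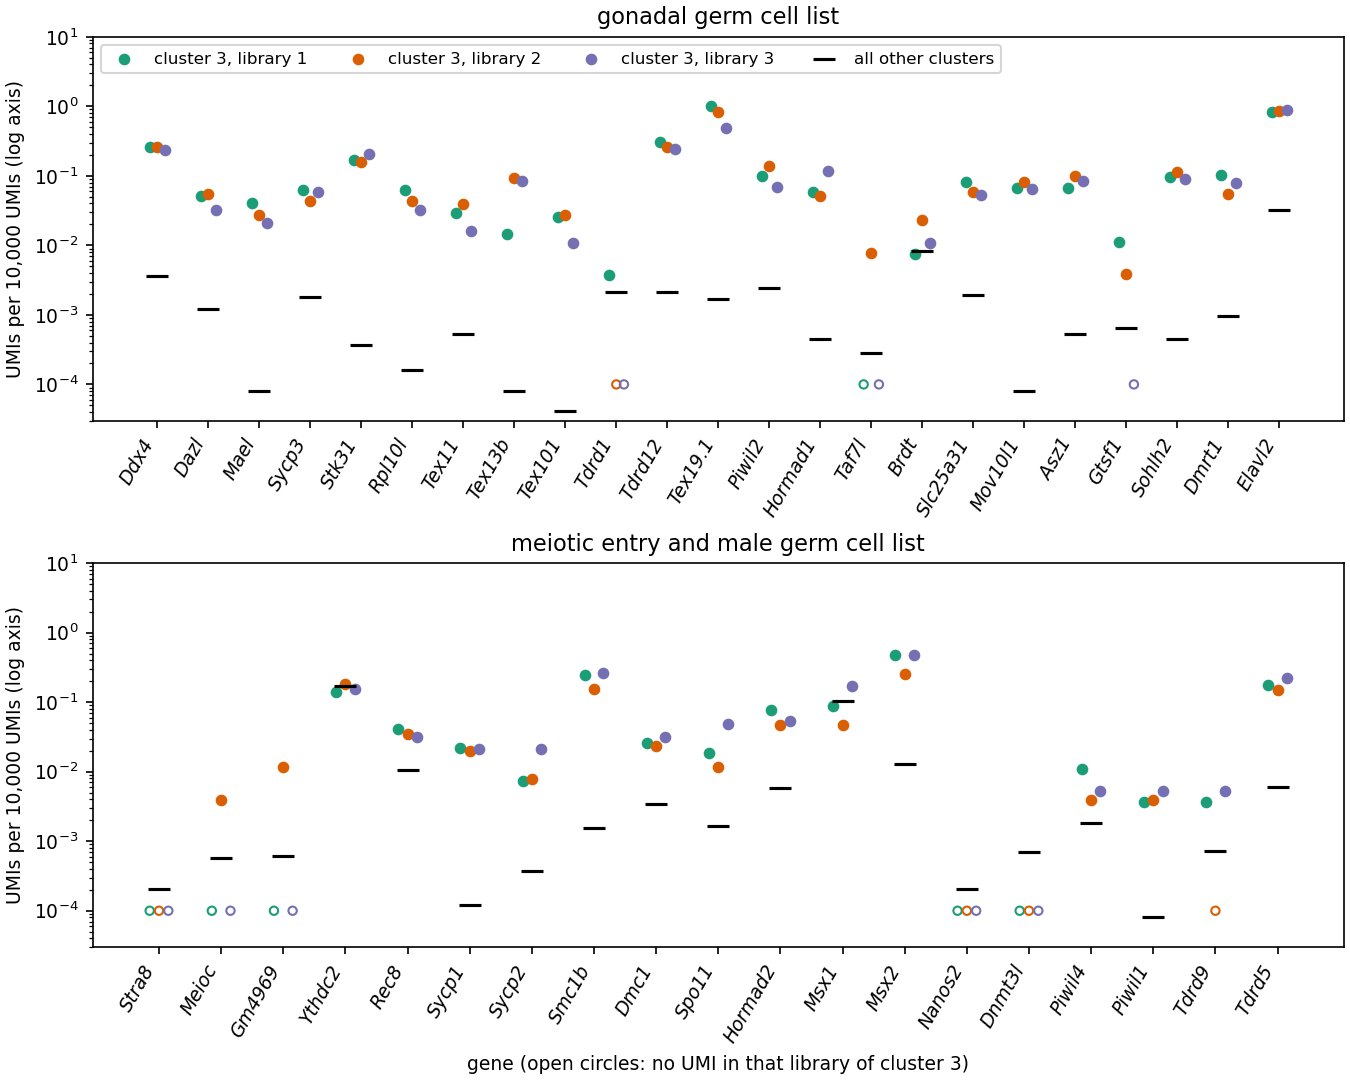
Levels (UMIs per 10,000 UMIs, log axis) of the gonadal germ cell genes (top) and of the meiotic entry and male germ cell genes (bottom) in each library of cluster 3 (points) and in all other clusters together (bars); open circles mark libraries with no UMI. *Tex19.1* and *Elavl2* lie highest in the top panel, and *Stra8*, *Nanos2* and *Dnmt3l* have open circles in all 3 libraries.

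The *Rhox* genes form a cluster of homeobox genes on the X chromosome that is expressed in germ cells, gonads and placenta. All 34 genes with this name were summed, giving 19.6, 16.8 and 16.7 UMIs per 10,000 in the 3 libraries of cluster 3 and 0.0730 in the other clusters. The sum came mostly from 3 genes, the only ones that reached the level for comparison. They reached it only through cluster 3, since all 34 genes summed to at most 0.289 in any other cluster. That all 3 were called higher follows from this filter and is no result. *Rhox9* was at 6.83, 6.01 and 5.49 (log2 ratio 9.18), *Rhox5* at 6.57, 5.13 and 5.74 (6.86) and *Rhox6* at 5.21, 4.81 and 4.68 (9.21). Much lower levels were seen for *Rhox4c* (0.199), *Rhox1* (0.129) and *Rhox2a* (0.108), and 13 of the 34 genes, *Rhox11* and *Rhox12* among them, had no UMI. *Rhox13*, which is found in later germ cells, had 12 UMIs in cluster 3 and none in the other clusters. The *Rhox2*, *Rhox3* and *Rhox4* copies are near-identical, so that the split of reads among them is uncertain.

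Enzymes of DNA methylation and its removal showed no common direction. Of 16 genes 14 were compared, of which 1 was higher and 5 were lower, and the sums were 12.0 UMIs per 10,000 in cluster 3 and 11.3 elsewhere. Over all genes compared 6.29% were higher and 26.6% lower. *Tet1*, a dioxygenase that oxidises methylated cytosine, was the gene that was higher, at 0.881, 1.11 and 1.09 against 0.0988 (log2 ratio 3.37, 3.24 to 3.49). Its paralogue *Tet3* was lower, at 0.0481, 0.0665 and 0.0480 against 0.513 (-3.23), and *Tet2* was at 0.140 against 0.183. The maintenance methyltransferase *Dnmt1* was at 1.32, 1.65 and 1.62 against 1.43 (log2 ratio 0.08, -0.01 to 0.17). *Uhrf1*, which recruits DNMT1 to replicating DNA, was lower, at 0.174, 0.379 and 0.240 in cluster 3 and 1.08, 1.30 and 1.16 in the other cells (-2.15, -2.36 to -1.94). The de novo enzymes *Dnmt3a* (0.248 against 0.592) and *Dnmt3b*, and the histone methyltransferase *Ehmt1* (0.380 against 0.915), were also lower. Cluster 1 had similar levels of *Uhrf1* (0.228), *Dnmt3a* (0.275) and *Dnmt3b* (0.0987, with cluster 3 at 0.0939). *Dnmt3a* was not called lower against cluster 2 (log2 ratio -0.87), nor *Dnmt3b* against cluster 4 (-0.92). *Trim28*, a corepressor that guards imprints, missed the 2-fold limit at 3.95 against 2.06 (log2 ratio 0.94).

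Most imprinted genes had lower levels in cluster 3 than in the other clusters as a whole. Imprinted genes are expressed from the maternal or the paternal copy only, and germ cells erase these marks. Of 18 genes listed, 17 were in the table and 16 were compared, with 2 higher and 10 lower. Over all genes compared 6.29% were higher and 26.6% lower. The median log2 ratio over the 17 was -1.35, against -0.24 over all genes compared. The non-coding RNA *H19* was at 0.851, 2.29 and 1.54 UMIs per 10,000 in the libraries of cluster 3 and at 5.83, 9.23 and 7.10 in the other cells (log2 ratio -2.23). The growth factor *Igf2* was at 0.766, 2.45 and 1.0 against 6.44, 10.8 and 10.4 (-2.66), and *Mest* at 2.01, 3.23 and 0.954 against 14.1, 15.6 and 13.7 (-2.73). For each of these 3 genes library 2 had the highest level in cluster 3.

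The cell cycle inhibitor *Cdkn1c* was at 0.605 against 3.30, and the zinc-finger gene *Plagl1* at 0.283 against 1.58. *Phlda2*, a placental growth regulator, was at 4.19, 2.66 and 3.15 against 0.0159 (log2 ratio 7.73), *Snrpn*, a splicing protein gene, at 0.964 against 0.226 (2.09) and *Peg3* at 2.56 against 1.83 (0.48). Of these *Phlda2* reached the level for comparison only through cluster 3, so that its call as higher follows from the filter. Low sums of imprinted genes were not limited to cluster 3. The 17 genes summed to 15.8 UMIs per 10,000 there, to 13.7, 8.27 and 7.56 in clusters 1, 5 and 6, and to 112, 57.2 and 82.2 in clusters 0, 2 and 4. Set against cluster 2, *Mest* stood at 9.86%, *Igf2* at 13.7% and *H19* at 19.5% of the level there, but *Ndn* at 31.1%, *Meg3* at 35.7% and *Peg3* at 125%. In the 131 cells of cluster 3 with at least 20,000 UMIs the levels of *Mest*, *Igf2* and *H19* were 1.65, 0.997 and 1.20. How far transcripts from other cells contribute to these levels was not tested.

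**Figure D3:**
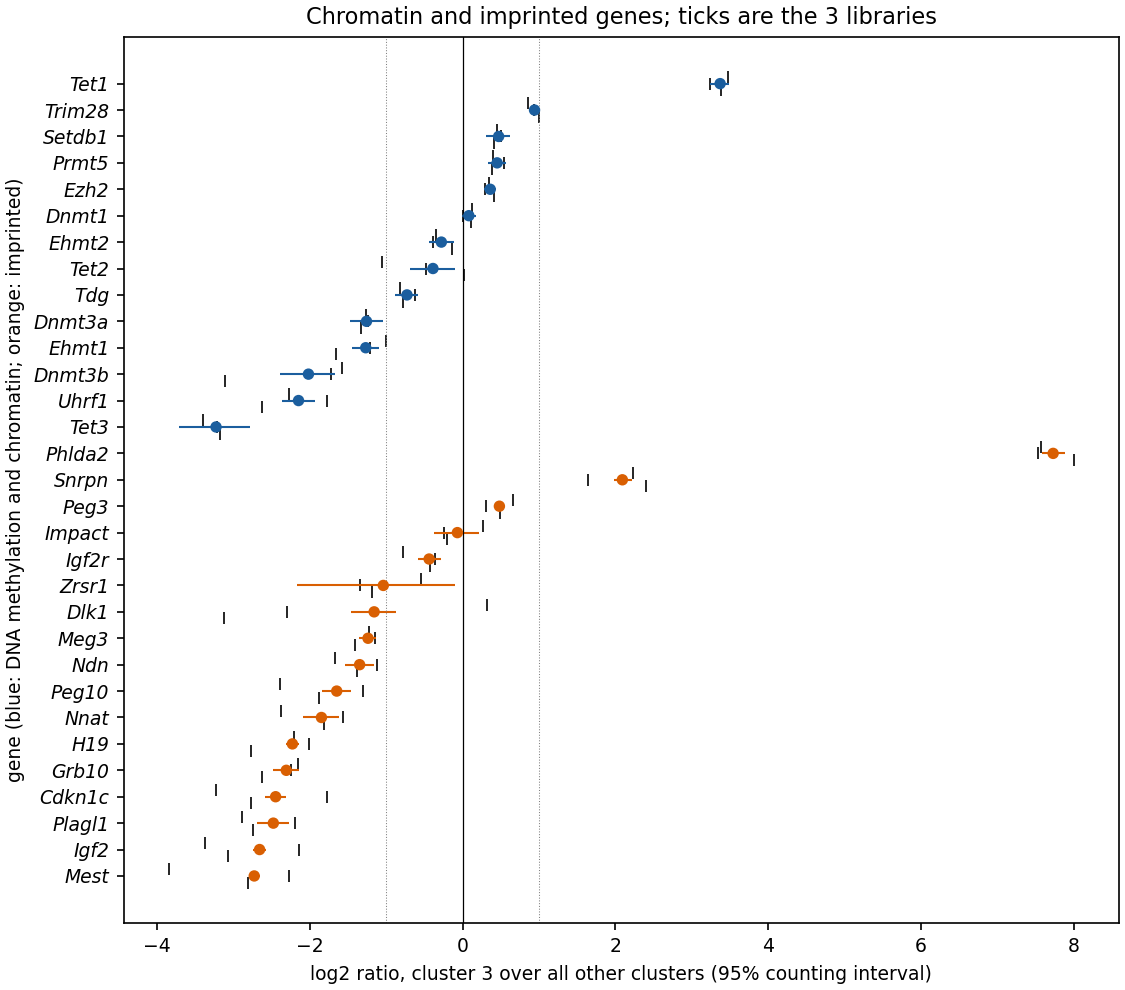
Log2 ratio of cluster 3 to all other clusters for the genes of DNA methylation and chromatin (blue) and the imprinted genes (orange) that have UMIs in cluster 3; horizontal bars are 95% counting intervals, ticks are the 3 libraries and dotted lines the 2-fold limits. *Tet1*, *Phlda2* and *Snrpn* lie beyond the upper limit, and *Tet3*, *Uhrf1*, *H19*, *Igf2* and *Mest* beyond the lower.

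Transcripts of Y-linked genes were found in every cluster, although the hearts are stated to be from females. At least 1 Y-linked UMI was found in 134 cells of cluster 3 (56.1%, 49.5 to 62.5%) and in 55.3% of the other cells. By library the share in cluster 3 was 56.5%, 52.9% and 68.8%. Thinned to 5000 UMIs it was 31.4% in cluster 3 and 28.6% elsewhere. Individual Y-linked genes had unlike ratios. *Uba1y*, a ubiquitin-activating enzyme gene expressed in male germ cells, had 49 UMIs in cluster 3 (0.0629, 0.0782 and 0.0640 per 10,000 by library) and 1 UMI in all other clusters (log2 ratio 10.72, 8.17 to 16.05), and the zinc-finger gene *Zfy1* had 18 UMIs against 1 (9.27, 6.61 to 14.65). *Ddx3y* was at 0.157 against 0.283, *Eif2s3y* at 0.392 against 0.235, *Kdm5d* at 0.0995 against 0.0999 and *Uty* at 0.105 against 0.0812. *Sry* and *Zfy2* had no UMI in any cluster and *Usp9y* had 2, both in library 2 of cluster 3. Of the 9 listed genes 3 were compared with the rest and none was called.

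*Xist*, the RNA that coats the inactive X chromosome, was lower in cluster 3, at 0.474, 0.892 and 0.539 UMIs per 10,000 against 1.81, 2.32 and 2.06 in the other cells (log2 ratio -1.67, -1.81 to -1.54). Among cells with at least 10,000 UMIs, 70 of the 173 in cluster 3 had no Y-linked UMI, and 37 of these 70 had no *Xist* UMI either (52.9%, 40.6 to 64.9%). In the other clusters 416 of 2956 such cells lacked *Xist* (14.1%, 12.8 to 15.4%). The share by library was 50.0%, 55.9% and 50.0% in cluster 3 and 15%, 15.7% and 10.1% in the other cells. Thinned to 5000 UMIs it was 71.3% against 52.6%. Cluster 1 also had a higher share than most, 36.7% of 49 cells (23.4 to 51.7%). Of the 3 other genes of X inactivation, *Tsix* and *Jpx* had 4 UMIs each and *Ftx* was at 0.0701 against 0.0480.

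The cells of cluster 3 with at least 10,000 UMIs were further split by these transcripts, a division chosen after the values had been seen. X-linked genes other than *Rhox* and the 4 genes of X inactivation made up 2.60% of X-linked and autosomal UMIs in the 89 cells with at least 2 Y-linked UMIs, 2.84% in the 30 cells with no Y-linked and at least 2 *Xist* UMIs, and 2.62% in the 37 cells with neither. The remaining 17 cells fell in no class. The X-linked share of *Xist* cells was 1.08, 1.08 and 1.12 times that of Y-linked cells in libraries 1, 2 and 3, where library 3 had 4 *Xist* cells. The same ratio was 0.987, 0.992 and 0.992 in cluster 2 and 1.04, 1.01 and 1.02 in cluster 4. The 3 classes of cluster 3 also differed in other respects. The 19 endothelial genes summed to 8.45, 9.50 and 3.87 UMIs per 10,000 in the Y-linked, *Xist* and neither class, 17 germ cell and pluripotency genes to 70.4, 55.1 and 75.8, and the median depth was 40,205, 39,984 and 26,739 UMIs. Their part in the X-linked shares was not tested.

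**Figure D4:**
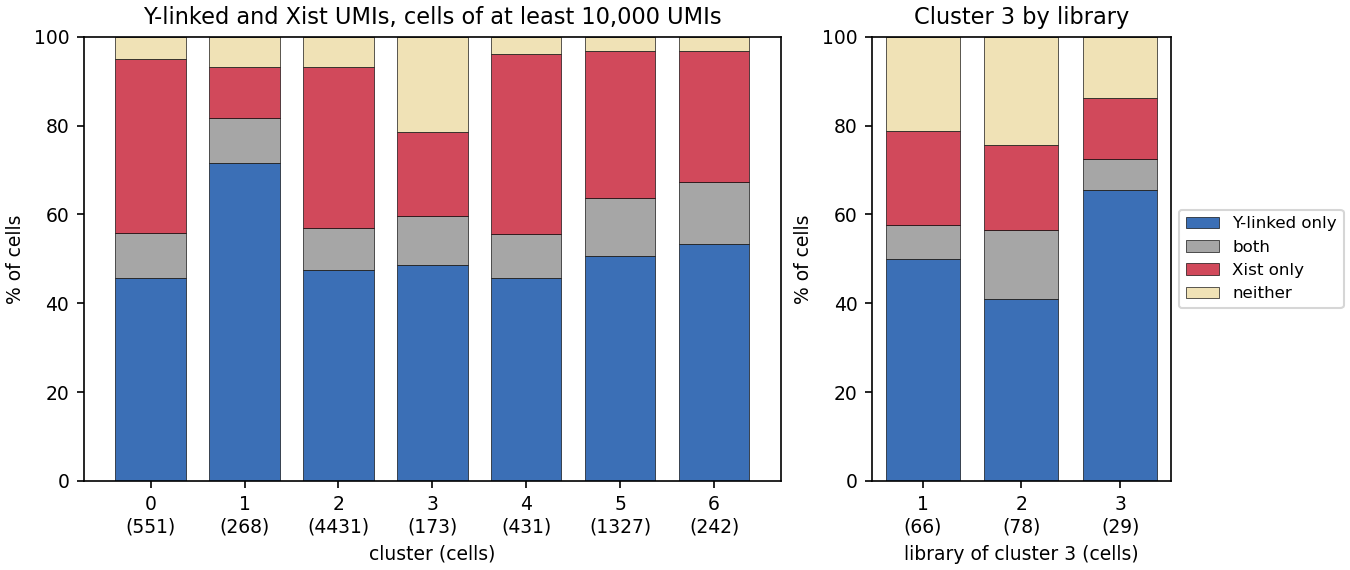
Share of cells (%) with Y-linked UMIs only, Y-linked and *Xist* UMIs, *Xist* UMIs only or neither, among cells with at least 10,000 UMIs, by cluster (left) and by library of cluster 3 (right); numbers of cells stand in parentheses. The class with neither takes 21.4% of cluster 3 and 5.74% of all other clusters together.

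Receptors for signals that guide and maintain germ cells were expressed unevenly. Of 17 genes 10 were compared, 2 higher and 4 lower, where 6.29% and 26.6% of all genes compared were. *Kit*, the receptor for stem cell factor, was at 0.747, 0.653 and 0.747 UMIs per 10,000 against 0.267 (log2 ratio 1.42), but lay below cluster 1, at 1.11. The BMP receptor *Bmpr1a* was at 0.220 against 0.0784 (1.49), with clusters 0 and 4 at 0.224 and 0.606. *Igf1r*, *Bmpr2*, *Acvr1* and *Lifr* were lower than in the other clusters together, with log2 ratios of -2.18, -1.78, -1.38 and -1.27. Some blood clusters were nevertheless at or below cluster 3. *Lifr* was at 0.157 in cluster 3 and at 0.105 and 0.0473 in clusters 5 and 6. *Acvr1* was at 0.0687 against 0.0676 and 0.0446 there, and *Bmpr2* at 0.153 against 0.110 in cluster 6. *Fgfr2*, below the level for comparison, was at 0.175 against 0.0174, with cluster 4 at 0.242. *Ret* and *Fgfr4* had 1 UMI each, and *Cxcr4*, the receptor that guides germ cell migration, was at 0.129 against 0.110.

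The p53 and apoptosis list gave no higher and 4 lower genes among 9 compared of 10, where 26.6% of all genes compared were lower. *Trp53* and its target *Bax*, which promotes the death of misplaced germ cells, were at 3.77 against 2.51 and 4.26 against 2.64, within the 2-fold limit. *Bak1* (0.116 against 0.558), *Bcl2* (0.0855 against 0.382), *Bbc3* (0.0547 against 0.145) and *Cdkn1a* (0.272 against 0.548) were lower. For *Cdkn1a* cluster 1 stood at 6.98, while clusters 0, 5 and 6 were at 0.217, 0.270 and 0.136, at or below cluster 3. *Bcl2* was also low in clusters 5 and 6, at 0.117 and 0.0882. *Bax* and *Bak1* encode the pair of pore-forming death effectors. Stress-response transcripts were also low, with 8 of 10 immediate early and heat shock genes lower, among them *Fos* (0.311 against 1.98) and *Jun* (0.678 against 3.01), and *Dnajb1* at 0.869 against 0.568. Against cluster 2, 3 of the 10 genes were lower, where 20.8% of all genes compared were.

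The summed levels of cell cycle genes were higher in cluster 3 than in each other cluster. The 42 S-phase genes summed to 49.7, 54.6 and 46.1 UMIs per 10,000 in its libraries, 50.5 in all, against 12.2 to 44.8 in the other clusters, and the 51 genes of G2 and M phase to 100.5 against 23.9 to 92.4. Single genes differed little. Of the 42 genes 2 were higher and 2 lower, *Uhrf1* being among the latter, and of the 51 genes 3 were higher and 2 lower. Over all genes compared 6.29% were higher and 26.6% lower. *Ung*, a uracil-DNA glycosylase, was at 3.31 against 0.429. At 5000 UMIs per cell 86.6% of cells were positive for *Top2a* (other clusters 57.8%), 65.7% for *Mki67* (50.9%, with cluster 5 at 66.8%) and 41.8% for *Pcna* (27.0%). The level of *Mki67* itself was 2.25 against 2.51 UMIs per 10,000, below clusters 2, 4, 5 and 6.

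Endothelial transcripts were lower in cluster 3 but present, in cells that had been sorted for CD31 and VE-cadherin. All 19 endothelial genes were compared with the other clusters together and all were lower, where 26.6% of all genes compared were. The sums were 9.36 against 48.9 UMIs per 10,000, with a median log2 ratio of -2.44. Clusters 4, 5 and 6 had similar sums, 7.96, 10.4 and 13.7, so that this level was not particular to cluster 3. *Cdh5*, which encodes VE-cadherin, was at 0.437, 1.07 and 0.347 UMIs per 10,000 in cluster 3 and 3.22, 4.00 and 3.31 in the other cells (log2 ratio -2.44, -2.57 to -2.31). *Pecam1*, which encodes CD31 and is also known from early germ cells, was at 1.01, 1.49 and 0.837 against 2.53, 3.11 and 2.70 (-1.27, -1.38 to -1.17). Library 2 had the highest level of both genes.

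The share of cells with *Cdh5* above the threshold was 35.6% (29.5 to 42.0%), made up of 20.3%, 50.0% and 6.25% in libraries 1, 2 and 3. The haematopoietic clusters 5 and 6 had 33.1% and 29.7% and the stromal cluster 4 had 20.8%. Without library 2 the share in cluster 3 was 15.8%, and in its cells with at least 10,000 UMIs 23.1%. *Pecam1* was above the threshold in 77.4% of cells of cluster 3 (71.0%, 84.8% and 59.4% by library), against 26.3% in cluster 4 and 45.2% in cluster 5. The UMIs of the pair stood in unlike ratios. Cluster 3 had 1.78 *Pecam1* UMIs for each *Cdh5* UMI (1.58 to 2.0; 2.32, 1.39 and 2.42 by library), clusters 0, 1 and 2 had 0.782, 0.801 and 0.768, and clusters 4, 5 and 6 had 0.962, 1.09 and 1.54. *Pecam1* stood at 34.6% of its level in cluster 2 and *Cdh5* at 14.9%.

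Endothelial levels in cluster 3 differed with the depth of the cells, but not in the same way in each library. The 66 cells with under 10,000 UMIs had 30.2 UMIs per 10,000 of the 19 genes and 38.0 of the 17 germ cell and pluripotency genes, and the 42 cells of 10,000 to 20,000 UMIs had 14.9 and 63.4. The 56 cells of 20,000 to 40,000 UMIs had 6.03 and 69.9, and the 75 deepest cells 7.65 and 68.4. Of the 66 shallow cells 60 were from library 2, with 32.3 and 36.8. From the shallowest to the deepest cells library 2 had 32.3, 16.8, 9.70 and 8.92 UMIs per 10,000 of the endothelial genes. Library 1 had 12.6, 4.18, 3.81 and 9.19 and library 3 had 5.0, 2.24, 1.61 and 5.32, with 2 to 4 cells in each of the first 2 groups, so that in both the deepest cells were above the middle groups. The part of free RNA and of doublets in these levels was not tested, and a caller of doublets marked 8 of all 9562 cells and none of cluster 3, in a matrix that the study describes as already limited to single cells.

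**Figure D5:**
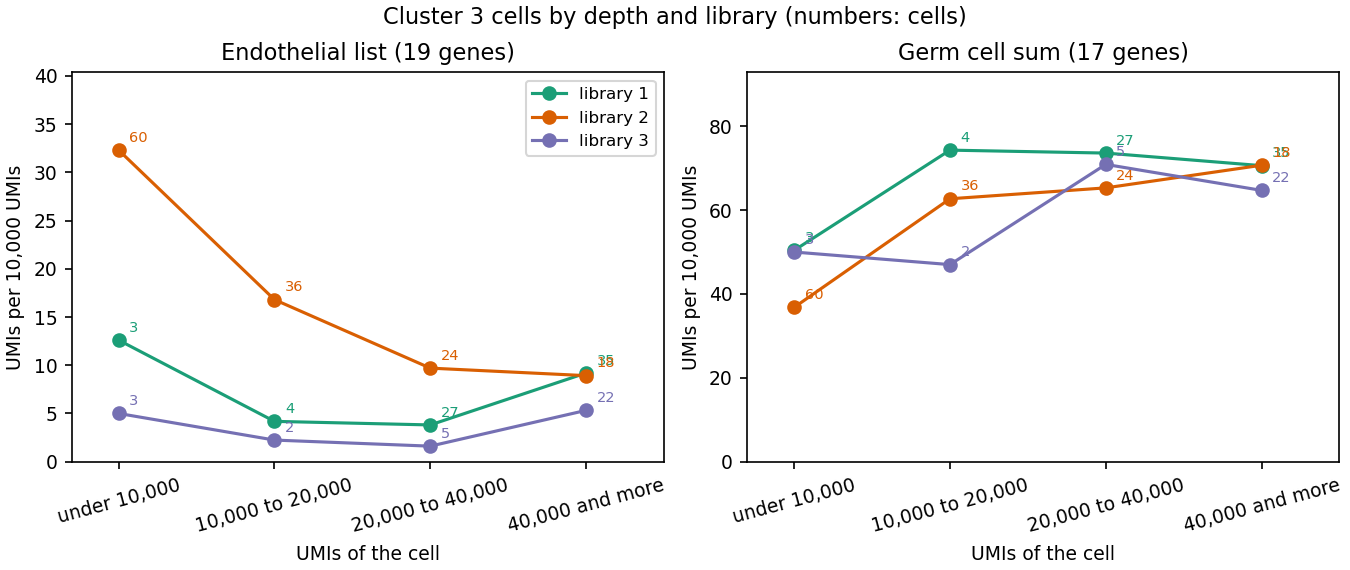
Summed level (UMIs per 10,000 UMIs) of the 19 endothelial genes (left) and of 17 germ cell and pluripotency genes (right) in cells of cluster 3 grouped by depth, for each library; the numbers at the points are cells. The 60 cells of library 2 with under 10,000 UMIs have 32.3 UMIs per 10,000 of endothelial and 36.8 of germ cell transcripts.

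Markers of most further cell types were scarce. Of 16 haematopoietic genes 15 were compared and 14 were lower, where 26.6% of all genes compared were. The 16 genes summed to 1.10 against 19.9 UMIs per 10,000, and *Ptprc* (CD45) had 10 UMIs, all in library 2. The low sum was not particular to cluster 3. Clusters 2 and 4 had sums of 1.03 and 1.11, and clusters 5 and 6 had 38.0 and 204. *Myb* was the exception, at 0.226, 0.235 and 0.251 against 0.196. Cluster 5 had more *Myb*, 0.728, while clusters 2 and 4 had 0.00975 and 0.0329. All 10 of 12 stromal genes that were compared were lower, with a sum of 0.198 against 2.38, 5 UMIs of *Pdgfra* and none of *Pdgfrb*. Cluster 4 carried this reference with 37.5, while clusters 2 and 5 were low too, at 0.296 and 0.303. Of 12 genes of the somatic gonad 2 were compared and neither was called, the sums were 0.200 against 0.213, and *Amh*, *Foxl2* and *Insl3* had no UMI. Clusters 2 and 4 had somatic gonad sums of 0.0849 and 2.77. The 7 cardiomyocyte genes summed to 0.0897 against 0.304, with both compared genes lower, and *Nppa* had no UMI. Clusters 2 and 5 had similar cardiomyocyte sums, 0.100 and 0.0858, and cluster 4 had 3.43. The 8 epithelial genes summed to 0.926 against 0.276, with cluster 4 at 3.97. Of the 8 genes 3 were compared, and *Cldn7*, a tight junction gene, was higher at 0.736, 0.532 and 0.571 against 0.0242 (log2 ratio 4.68). Over all genes compared 6.29% were higher. *Cldn7* reached the level for comparison only through cluster 3, so that its call follows from the filter and is no result.

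Among genes at 1 UMI per 10,000 or more in the other clusters, those with the lowest ratio in cluster 3 were blood genes, namely *Hba-x*, *C1qb*, *Hbb-y*, *Pf4*, *Fcer1g*, *Lyz2*, *Tyrobp*, *Coro1a*, *Rac2* and *Ctsc*. *Pf4*, a platelet and megakaryocyte chemokine, was at 0.159, 0.516 and 0.0853 against 8.86, 6.71 and 7.57. Cluster 6 carried this reference with 167, while clusters 0 and 2 were at 0.172 and 0.158, below the 0.268 of cluster 3. The embryonic globin *Hbb-y* was at 0.0814, 0.211 and 0.0587 against 5.74, 5.69 and 0.135, so that libraries 1 and 2 carried its ratio.

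Cluster 4, with mesenchymal and smooth muscle genes, is the second cluster that the study counts as non-haematopoietic. Against it 696 of 8543 genes (8.15%) were higher and 2035 (23.8%) lower in cluster 3. *Pou5f1* was at 4.66 UMIs per 10,000 against 0.0144 (log2 ratio 8.34, 7.66 to 9.12) and *Dppa5a* at 24.6 against 0.0127 (10.92). *Dppa3*, *Utf1*, *Rhox6* and *Rhox9* had 3, 2, 2 and 1 UMIs in the whole of cluster 4, so that their ratios are bounded by few counts (for *Dppa3* 11.89, 10.34 to 14.17). Contractile and matrix genes were among those with the lowest ratios, for example *Acta2* (0.0154 against 7.03, log2 ratio -8.83), *Tagln* and *Mgp*. Whatever their level, 20 of the 23 pluripotency genes were higher than in cluster 4 and 2 lower. *Sox2* and *Epcam* were closer to cluster 4 than to the rest, with log2 ratios of 3.26 and 1.77 against 6.85 and 5.59. Of the endothelial genes 1 was higher than in cluster 4, *Pecam1* (1.08), and 2 were lower, *Fli1* (-1.24) and *Mcam* (-1.35).

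Cluster 2 is the largest cluster and endothelial. Against it 885 of 8041 genes (11.0%) were higher and 1674 (20.8%) lower in cluster 3. *Dppa3* led the higher genes (log2 ratio 10.46), followed by *Utf1* (10.45), *Dppa5a* (10.38) and *Tfap2c* (10.33). The genes with the lowest ratios were *Tmem255a* (0.0911 against 1.14 UMIs per 10,000, -3.64), the sialomucin *Emcn* (0.667 against 7.81, -3.55), *Bgn*, *Bok*, the apelin receptor *Aplnr* (0.349 against 3.84), *Clec1b*, *Fam171a2*, *Arhgap18*, *Hapln1* and the adrenomedullin co-receptor *Ramp2* (0.828 against 8.42, -3.34). All 19 endothelial genes were lower than in cluster 2. Of the 16 genes of DNA methylation and chromatin, whatever their level, *Tet1* was again the single higher one (3.26) and 4 were lower.

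Variation among the 239 cells was assessed at 5000 UMIs per cell. Of 1532 genes with a mean of at least 0.5 UMIs, the median variance over mean was 1.11. The 15 most variable were 8 mitochondrial genes, led by *mt-Co3* (32.6), and *Gm42418* (23.3), *Malat1* (16.2), *Tmsb4x* (15.7), *Actb*, *Gm26917*, the fatty acid-binding protein *Fabp4* (7.22) and *Dppa5a* (6.45). *Fabp4*, a gene of adult capillary endothelium, was detected in 33.9% of cells, and *Dppa5a* was the single germ cell gene among the 15.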

How the data were processed

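The authors sequenced 3 pools with 10x Genomics v3 chemistry, and per the submitters' processing notes used Cell Ranger 3.1.0 and Seurat 3.1.5 with mm10. The deposited tables hold UMI counts per Ensembl gene and cell, the natural log of 1 plus counts per 10,000 UMIs, made by the authors, and UMAP coordinates (a deposited score, not used) with the authors' Leiden cluster numbers. The natural log table differed from values recomputed from the counts by at most 6.2e-15. Of 27,998 identifiers 27,645 were named from GENCODE M21, 353 kept their identifier, and equal names were summed, leaving 27,994 genes.

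Counts were summed per cluster and library in Python 3.11.15 with numpy 2.4.6, pandas 2.3.3 and scipy 1.17.1. Intervals were exact Poisson, Clopper–Pearson or conditional binomial. A count of 0 was taken to allow 3 UMIs. Shares were repeated after thinning to 5000 UMIs per cell. Doublets were called with Scrublet in scanpy 1.11.5. For clusters 4 and 2 the level of genes compared was the mean of the 2 clusters. The scripts were tested on simulated data. The cells, the gene lists and the comparisons were chosen with earlier results of these data known. Named genes were members of the 21 lists, the 20 with the highest ratio to all other clusters, 10 in each other direction, the 15 most variable and those named *Rhox*. *Rian* was not in the table, and a few listed or ranked items are not reported here. Any other gene was chosen after its values were seen.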

Additional observations from a re-analysis of the deposited data

How the results depend on the processing

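Of 54 alternatives for the 6 counts of genes, 42 stayed within 1.5 times the reported count, and of 33 for the 4 shares of cells, 21 stayed within the reported interval. The minimum level of genes compared set the counts: at 0.02 and at 1 UMI per 10,000, 1171 and 47 genes were higher and 3540 and 383 lower than in all other clusters, 1151 and 130 higher and 3660 and 217 lower than in cluster 4, and 1705 and 116 higher and 2539 and 243 lower than in cluster 2. Leaving out each library in turn gave 552 to 567 and 2225 to 2473, 684 to 735 and 1973 to 2201, and 862 to 922 and 1621 to 1763 genes, in the same order.

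The share of cluster 3 with Y-linked UMIs was 41.4% above 1 count per 10,000, 39.7% with at least 2 UMIs and 31.4% after thinning. The share with *Cdh5* was 49.4% above 0, 28.5% with at least 2 UMIs and 15.8 to 41.8% when each library was left out, the lowest without library 2. The share with at least 3 markers was 91.2% with at least 2 UMIs for each marker, 95% after thinning and 97.6 to 100.0% when each library was left out. Cluster 3 took 1.8 to 2.81% of cells when each library was left out, the lowest without library 2. In cells with at least 10,000 UMIs, an alternative chosen after seeing the data, *Cdh5* was found in 23.1% and at least 3 markers in 100.0%. No paired analysis was possible because no result comes from a test: all cells belong to 1 treatment, and values of cluster 3 and of the other cells are given side by side within each library instead. Depth limits genes with a handful of UMIs in cluster 3, where a count of 0 allows up to 0.00420 UMIs per 10,000.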

Other observations

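In the other clusters 50 cells had at least 3 of the 5 germ cell markers. Of these 33 were in cluster 2, 12 in cluster 5 and 5 in cluster 6, and 44 came from library 2, 4 from library 3 and 2 from library 1. Their median depth was 10,491.5 UMIs. They carried 18.9 UMIs per 10,000 of the 17 germ cell and pluripotency genes and 30.0 of the 19 endothelial genes, where the marker-positive cells of cluster 3 had 66.5 and 9.26 and the other cells outside cluster 3 had 0.322 and 49.0. The 32 cells with 4 or 5 markers had 21.4 and 24.7, and the 18 cells with 3 markers, all from library 2, had 7.09 and 55.7.

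A few further genes were looked up after their values had been seen. *Pdgfa*, a ligand of the receptor by which the stromal cells were sorted, was at 2.05, 2.11 and 2.05 UMIs per 10,000 in the libraries of cluster 3 and at 0.368 in the other clusters together, with cluster 1 at 4.31. *Kitl*, the ligand of *Kit*, was at 0.174 against 1.04 in the other clusters together, with clusters 5 and 6 at 0.154 and 0.199. The creatine kinase *Ckb* was at 7.12 against 1.76. The intermediate filament gene *Vim* was at 3.20, 4.64 and 2.84 against 21.4, the actin-binding *Tmsb4x* at 9.76, 20.1 and 7.84 against 106 and *Hmga2* at 0.474, 0.954 and 0.267 against 3.07, each with its highest level in library 2. Cluster 6 had less *Vim* than cluster 3, 2.81 against 3.62. Clusters 1 and 6 had *Hmga2* at 0.571 and 0.585, near the 0.591 of cluster 3.

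Cells of cluster 3 with *Ddx4* UMIs were found with and without *Pou5f1*. UMIs of both genes were in 76 cells, of *Pou5f1* alone in 144, of *Ddx4* alone in 4 and of neither in 15. *Ddx4* was thus in 34.5% of cells with *Pou5f1* and 21.1% of those without, at median depths of 27,315 and 7169 UMIs.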
